A study of Homo sapiens with 6 samples.

Results

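Secreted antagonists of Wnt signalling, the ligand gene WNT5A and the receptor gene FZD7 were examined in A-498 cells, an established line from a human renal cell carcinoma, after treatment with zebularine. The members were the genes SFRP1, SFRP2, SFRP4, SFRP5, DKK1, DKK2, DKK3, WIF1, WNT5A and FZD7, taken with every probe set annotated to exactly 1 of them. This gave 9 of the 10 genes, of 11963 genes with a probe set of their own, and 18 of the 22277 probe sets on the array; expression of SFRP2, to which no probe set used here is annotated alone, was not analysed. Total RNA came from 3 untreated cultures and 3 cultures grown with 1000 µM zebularine, all in the same serum-containing medium for 120 h. The titles number them as biological replicates 1 to 3, with 1 untreated and 1 treated array for each number. Arrays of 1 number are called an experiment here, though the titles do not say that they were grown together. Zebularine is a cytidine analogue that inhibits DNA methyltransferases. Cultures were split on days 3 and 5. A-498 is a single tumour line, so the spread between these cultures says nothing about other lines.

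Wnt proteins are secreted lipid-modified ligands that bind Frizzled receptors together with coreceptors of the LRP or ROR kind. In the canonical branch this stabilises beta-catenin, which then drives TCF/LEF target genes, while ligands such as WNT5A mostly act through branches that control cell polarity, movement and calcium. The SFRP proteins and WIF1 bind Wnt ligands outside the cell and the classical Dickkopf proteins block the LRP coreceptor. Several of these antagonist genes are known to be silenced by promoter methylation in renal and other carcinomas, which makes their response to a methyltransferase inhibitor a natural question. Methylation was not measured here.

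The array values are MAS5 signals on a linear scale. Differences below are treated minus untreated on the log2(signal + 16.34) scale, where 1 unit is at least a doubling of the signal because the pseudocount shrinks the change of dim probe sets. A probe set was tested when 3 or more of the 6 arrays reached a signal of 78.6, the 40th percentile of the values without control probe sets. The test was limma, its p-values adjusted after Benjamini and Hochberg over the 13545 probe sets that were tested, and a probe set counted as called at an adjusted p under 0.05. These p-values measure only the spread between cultures of 1 line. Same-numbered arrays deviated together. The main fit did not use this pairing, so values with the experiment as a block are given where they change a call.

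Of the members, 8 probe sets of 4 genes passed the filter, and 1 of these 8, for SFRP4, was called, against 0.62% of all tested probe sets. It was lower in treated cultures, a direction called for 0.295% of all, and no member was called higher, against 0.325%. The blocked fit again called SFRP4 alone, where 4.22% of all tested probe sets were called, 2.32% lower and 1.9% higher. The other 10 probe sets, among them all those of SFRP1, SFRP5, DKK1, DKK2 and WIF1, were too dim to test.

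Promoter sequences are shown for SFRP4, the member that was called, and for WNT5A, the member with the largest difference in the other direction, because the drug acts on methylation of cytosine in CpG pairs. Each is the 250 bases before an annotated start site, 5′ to 3′ on the strand of the gene, from RefSeq on GRCh38.p14, with every CpG in capitals. The SFRP4 window is chr7:37916818-37917067 on the minus strand, and the WNT5A windows are chr3:55487307-55487556 and chr3:55481399-55481648, also on the minus strand.
SFRP4: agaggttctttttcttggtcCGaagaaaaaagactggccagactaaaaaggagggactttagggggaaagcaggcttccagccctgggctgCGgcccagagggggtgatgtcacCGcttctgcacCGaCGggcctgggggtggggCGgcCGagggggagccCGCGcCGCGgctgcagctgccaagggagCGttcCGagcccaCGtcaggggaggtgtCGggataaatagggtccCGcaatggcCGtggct
WNT5A window 1: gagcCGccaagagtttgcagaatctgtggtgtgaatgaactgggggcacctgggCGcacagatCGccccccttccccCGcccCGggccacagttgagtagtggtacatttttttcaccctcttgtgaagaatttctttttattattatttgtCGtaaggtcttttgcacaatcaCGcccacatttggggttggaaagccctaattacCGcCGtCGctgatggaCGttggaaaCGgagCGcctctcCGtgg
WNT5A window 2: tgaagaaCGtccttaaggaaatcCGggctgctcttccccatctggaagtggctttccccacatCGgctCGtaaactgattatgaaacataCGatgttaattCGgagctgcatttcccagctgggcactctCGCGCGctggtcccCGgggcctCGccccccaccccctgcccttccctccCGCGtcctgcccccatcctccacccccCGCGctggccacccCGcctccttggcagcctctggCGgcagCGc

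The SFRP4 window held 17 CpG and the WNT5A windows 14 and 18, with CpG at 0.688, 0.803 and 0.759 of the number expected from their C and G content. Among 35114 RefSeq windows of the same length the median was 11 CpG, and 39% of all windows held at least as many as SFRP4. Whether CpG number has a part in the SFRP4 or WNT5A difference was not tested. Of the 10 member genes 6 had a window in the table, 7 windows in all. The WIF1 window held 27 CpG, a number reached by 17.7% of all windows, and those of SFRP5, DKK1 and SFRP2 held 21, 18 and 11. The core TCF/LEF letters CTTTGA, searched on both strands, were found in 1 of these 7 windows, that of DKK1, at 149 and 95 bases before the start, and in 11.2% of all windows. A match is a description of letters and not a measured binding site.

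SFRP4 fell after zebularine. SFRP4 encodes a secreted Frizzled-related protein with a cysteine-rich domain like that of the receptors. At probe set 204051_s_at its signal was 434.7, 479.0 and 342.4 in the untreated cultures of experiments 1, 2 and 3. In the treated cultures it was 124.8, 88.7 and 84.5. All 3 treated arrays lay below all 3 untreated ones, with no overlap, as for 8.88% of all tested probe sets, and the treated array was the lower one in each experiment, as for 21.8%. The mean went from 419 ± 69.7 to 99.3 ± 22.2 (SD, n = 3). The log2 difference was -1.92 ± 0.32 (standard error; limma, adjusted p = 0.0277), and -1.68, -2.24 and -1.83 in experiments 1, 2 and 3. The treated signals stayed only a little above the filter level of 78.6, so the size of the fall depends on the pseudocount, from -1.55 with a larger one to -2.08 with a floor in place of it.

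The call for SFRP4 did not hold in every fit, while its difference stayed between -2.07 and -1.75 with an array or experiment left out. With untreated array 1 left out the difference was -1.88 (limma, adjusted p = 0.0808), with untreated array 2 left out -1.82 (0.0523) and with untreated array 3 left out -2.05 (0.0786). Leaving out the zebularine array of experiment 2 gave -1.85 (limma, adjusted p = 0.152) and that of experiment 3 gave -1.82 (0.0694). Without zebularine 1 it was -2.07 (limma, adjusted p = 0.0259). With the experiment as a block the adjusted p was 0.00479, and 0.0256, 0.00603 and 0.00136 when experiment 1, 2 or 3 was left out of that fit.

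The second SFRP4 probe set, 204052_s_at, was too dim to test and did not show the fall. It gave 81.1, 10.1 and 63.8 in untreated and 13.8, 26.1 and 41.1 in treated cultures, lower on the treated array in experiments 1 and 3 and higher in experiment 2. The loss of SFRP4 signal therefore rests on 1 of its 2 probe sets. By Pearson correlation over the 6 arrays, the tested genes whose log2 values were most like those of 204051_s_at were PTPN13, a protein tyrosine phosphatase (r = 0.991), GHR, the growth hormone receptor (r = 0.990), and IARS1, an isoleucyl-tRNA synthetase (r = 0.988). These are the highest values among 7937 genes, of which 119 had r of at least 0.9. They rest on 6 arrays in 2 groups and are a description only.

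**Figure D1:**
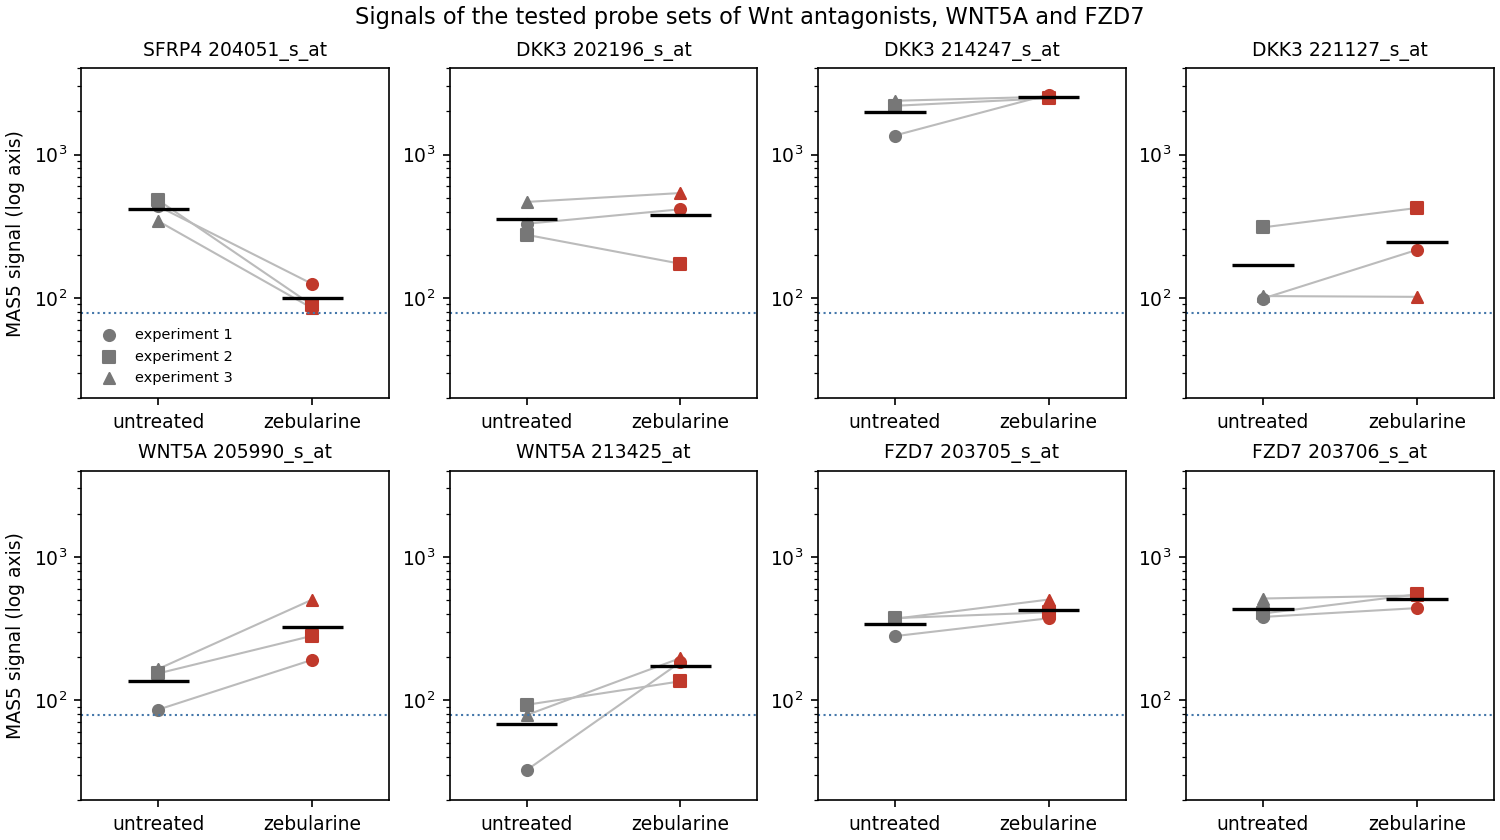
MAS5 signal on a log axis for the 8 tested probe sets, 1 panel each, with untreated cultures in grey and treated ones in red. Symbols mark the 3 experiments, grey lines join the arrays of 1 experiment, black bars are group means (n = 3) and the dotted line is the filter level of 78.6. SFRP4 goes from 342.4 to 479.0 down to 84.5 to 124.8, while WNT5A lies higher on every treated array.

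The other SFRP genes had no signal that could be tested. SFRP1, a close relative of SFRP2 and SFRP5, had 3 probe sets with signals of 4.4 to 91.3, each at or above 78.6 on at most 1 array. At 202035_s_at the treated array was lower in all 3 experiments, from 21.6 to 4.4, 9.8 to 4.4 and 29.0 to 18.6, all well under the filter level. Its other probe sets went both ways: 202036_s_at was lower in experiments 1 and 2 and higher in experiment 3, and 202037_s_at was higher in experiments 1 and 2 and lower in experiment 3. At 202037_s_at the signals were 22.3, 6.9 and 25.0 in untreated and 49.2, 91.3 and 18.4 in treated cultures, with group means of 18.1 and 53.0 and 1 treated array above the filter level. The SFRP1 probe sets therefore gave no common direction.

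SFRP5, at 207468_s_at, gave 13.3, 13.7 and 11 in untreated and 18.6, 17.0 and 17.3 in treated cultures. The treated values were all higher than the untreated ones, but every value lay under the floor of 20.8 used as an alternative to the pseudocount, where the log2 difference of 0.23 becomes 0. WIF1, the Wnt inhibitory factor that binds the ligands directly, gave 14.3, 10.7 and 23.2 in untreated and 74.5, 14.3 and 28.6 in treated cultures. It was higher on each treated array, and only that of experiment 1 stood out, still under the filter level.

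Among the Dickkopf genes only DKK3 was bright enough to test. DKK1, the classical LRP6 antagonist and itself a target of beta-catenin, gave 46.0, 78.7 and 26.5 in untreated and 22.8, 13.6 and 29.4 in treated cultures, lower in experiments 1 and 2 and slightly higher in experiment 3. DKK2, which can activate or inhibit the coreceptor depending on its partners, gave 4.0, 4.3 and 1.0 in untreated and 44.7, 19.8 and 3.4 in treated cultures. All 3 differences of DKK2 were upward, between signals near the bottom of the scale. Over the 10 dim probe sets, 4 of 60 values reached 78.6.

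DKK3, the divergent Dickkopf member that is often silenced in tumours, had 3 testable probe sets out of 5, and none was called. At 214247_s_at its signals were 1356.9, 2187.2 and 2371.4 in untreated and 2617.5, 2470.2 and 2532.7 in treated cultures. The groups did not overlap, as with 8.71% of all tested probe sets in this direction, and the treated values lay close together. The difference of 0.40 ± 0.26 (limma, adjusted p = 0.566) came mostly from experiment 1, at 0.94 against 0.17 and 0.09 in experiments 2 and 3, and was 0.16 without untreated 1. At this probe set the DKK3 signal was thus well above the filter level in the untreated cultures too.

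The other DKK3 probe sets did not give the same picture. At 202196_s_at the signals were 328.6, 275.1 and 466.7 in untreated and 414.7, 172.8 and 538.3 in treated cultures, and the difference was -0.03 ± 0.38 (limma, adjusted p = 0.984). At 221127_s_at they were 98.8, 310.0 and 102.8 in untreated and 215.8, 423.4 and 101.5 in treated cultures, a difference of 0.48 ± 0.52 (limma, adjusted p = 0.749) that turned on single arrays. It was 0.01 with zebularine array 2 left out, 0.22 and 0.24 with untreated array 1 or 3 left out, and 0.96 and 0.97 with zebularine array 3 or untreated array 2 left out. The remaining probe sets, 207875_at and 221126_at, stayed between 3.8 and 52.4. The mean of the 3 tested probe sets differed by 0.28 ± 0.25 (limma, adjusted p = 0.656).

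WNT5A, the ligand gene, lay higher on every treated array at both of its probe sets without passing the test. At 205990_s_at its signal was 85.8, 153.5 and 165.0 in the untreated and 190.9, 280.8 and 502.6 in the treated cultures of experiments 1, 2 and 3. The lowest treated value was above the highest untreated one, as for 8.71% of all tested probe sets. The mean went from 135 ± 42.8 to 325 ± 160 (SD, n = 3), a log2 difference of 1.12 ± 0.39 (limma, adjusted p = 0.265). The differences in the 3 experiments were 1.02, 0.81 and 1.52, all upward, as for 20.9% of all tested probe sets.

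The second WNT5A probe set, 213425_at, gave 32.4, 92.6 and 78.5 in untreated and 183.9, 135.1 and 196.2 in treated cultures, again with no overlap. All 3 treated arrays but only 1 untreated array reached the filter level, so this probe set entered the test through the group in which it was high. Its mean went from 67.8 ± 31.5 to 172 ± 32.3 (SD, n = 3), a difference of 1.23 ± 0.46 (limma, adjusted p = 0.285), with 2.04, 0.48 and 1.16 in experiments 1, 2 and 3. With the block 205990_s_at stood just outside the threshold (limma, adjusted p = 0.0543), and crossed it after quantile normalization (0.0443) or without experiment 2 (0.0363).

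FZD7, a Frizzled receptor that can bind WNT5A and canonical ligands, differed by small amounts. At 203705_s_at its signals were 279.2, 372.9 and 369.1 in untreated and 372.2, 409.4 and 502.6 in treated cultures. At 203706_s_at they were 380.2, 401.8 and 511.1 in untreated and 438.0, 546.0 and 536.8 in treated cultures. Treated arrays were higher in all 3 experiments at both probe sets, as for 20.9% of all tested probe sets, while the groups overlapped. The differences were 0.32 ± 0.27 and 0.23 ± 0.26 (limma, adjusted p = 0.671 and 0.762).

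**Figure D2:**
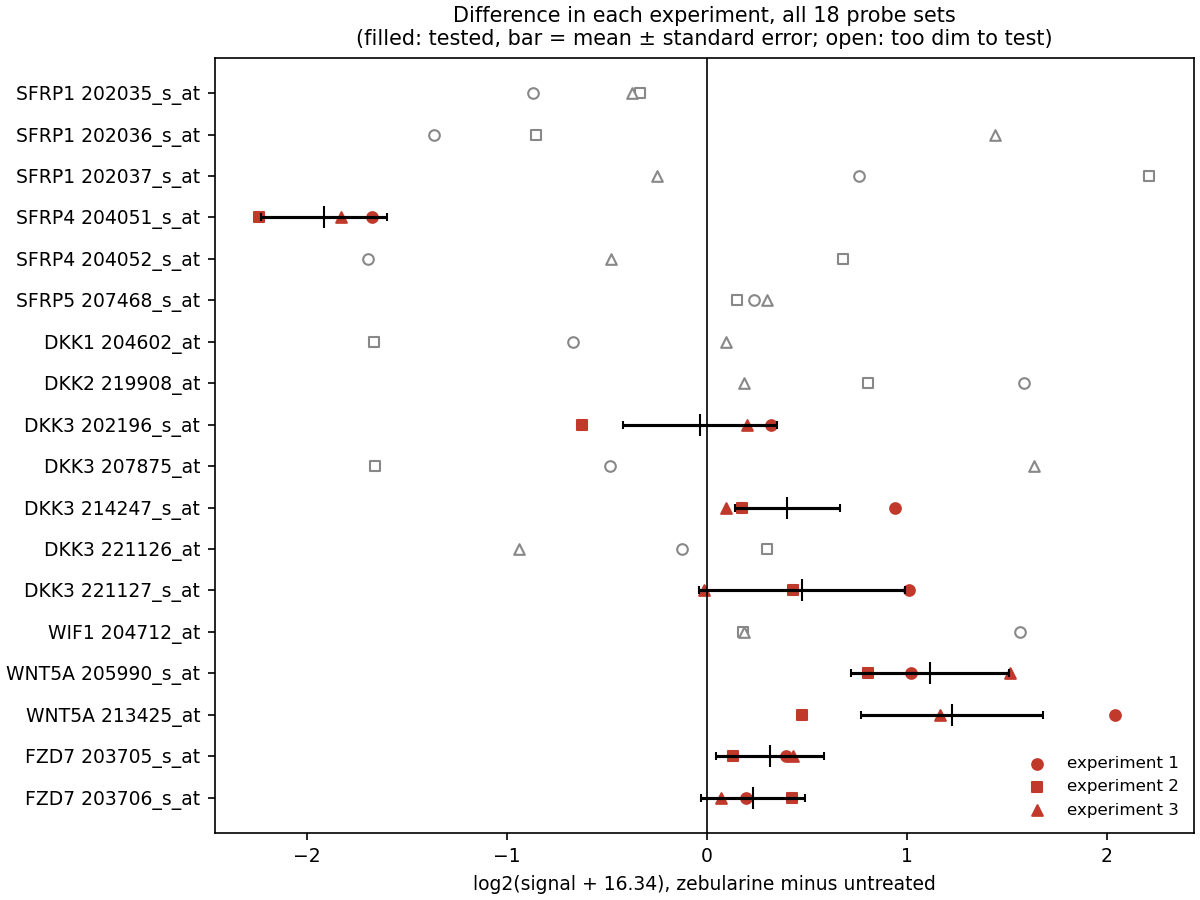
Difference on the log2(signal + 16.34) scale, zebularine minus untreated, in each of the 3 experiments (symbols) for all 18 probe sets. Filled red symbols are tested probe sets, with a black tick for the mean and a bar for its standard error (n = 3 per group), and open grey symbols are probe sets too dim to test. The 3 values of SFRP4 204051_s_at lie between -2.24 and -1.68, those of WNT5A between 0.48 and 2.04, and most dim probe sets scatter across 0.

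Across the 8 tested probe sets, 4 had groups that did not overlap, 1 lower and 3 higher, against 17.6% of all tested probe sets. These 8 come from 4 genes, so they are not independent of each other, and WNT5A 213425_at was among them only through its treated arrays. At 5 of them, for WNT5A, FZD7 and DKK3, the treated array was higher in all 3 experiments, against 20.9% of all tested probe sets, and at 1, for SFRP4, it was lower in all 3, against 21.8%. The count is given as a description.

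Other genes of the pathway were taken from 7 lists of 165 genes, of which 94 were tested, each at its brightest tested probe set. In limma 1 gene was called, or 1.06%, against 0.642% of all 7938 tested genes. With the experiment as a block 8 were called, 2 higher and 6 lower, or 8.51% against 4.45% of all tested genes. The lists were chosen with earlier results of these data known, so these shares, and those of each list below, are descriptions only. The median difference over the 94 genes was -0.01, the same as over all tested genes. None of the 8 was a Wnt ligand, a Wnt receptor or a part of the intracellular beta-catenin machinery. Those lists had only 2, 12 and 31 tested genes, and the blocked fit called 4.45% of all tested genes, so this absence is a description only.

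Few further inhibitors and ligands of the pathway were bright enough to test. Of 9 other Wnt inhibitors with a probe set 2 were tested, and only CER1, a secreted inhibitor that also binds BMP and Nodal ligands, acts outside the cell. The other, TLE5, is a short nuclear relative of the Groucho corepressors. CER1 and TLE5 differed by 0.82 ± 0.55 and -0.34 ± 0.25 (limma, adjusted p = 0.582 and 0.621). Of 12 other ligand genes with a probe set, WNT6 and WNT10B were tested, at 0.66 ± 0.61 and 0.16 ± 0.51 (limma, adjusted p = 0.705 and 0.924). WLS, the carrier that brings Wnt proteins to the cell surface, went from 327 ± 34.2 to 364 ± 80.5, a difference of 0.13.

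None of the receptor genes was called, where limma called 0.642% of all tested genes without the block and 4.45% with it. Of 12 tested receptors and coreceptors 4 lay higher on average in treated cultures and the list's median was -0.23. FZD6, another Frizzled gene, differed by -0.25 ± 0.29 and SDC1, a heparan sulfate coreceptor, by -0.01 ± 0.25 (limma, adjusted p = 0.763 and 0.991). ROR1 and RYK, receptors through which WNT5A can act, stood at 193 ± 37.9 and 647 ± 79.0 in untreated and 271 ± 84.0 and 658 ± 58.9 in treated cultures, named after their values were seen.

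The intracellular list had 31 tested genes, with a median of -0.16. None was called in either fit, against 0.642% and 4.45% of all tested genes. Its brightest members were CSNK1A1, a casein kinase of the beta-catenin destruction complex, at 0.15 ± 0.25, and RUVBL2, an ATPase that binds beta-catenin, at -0.16 ± 0.27. Beta-catenin itself, CTNNB1, stood at 949.3, 1125.5 and 1120.1 in untreated and 1592.6, 1344.8 and 1464.6 in treated cultures, a difference of 0.46 ± 0.24 (limma, adjusted p = 0.449), and was named after its values were seen.

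Genes known as beta-catenin targets went in both directions. Of 21 tested targets 11 lay higher on average in treated cultures, the median was 0.01, and MMP7 was the 1 gene called. MMP7, a matrix metalloproteinase, went from 1930.1, 4206.9 and 2343.6 to 810.1, 965.4 and 799.9 and fell by 1.62 ± 0.30 on the log2 scale (limma, adjusted p = 0.0337). Its call was lost without untreated 3 (-1.72, adjusted p = 0.0984), zebularine 1 (-1.59, 0.0555), zebularine 2 (-1.71, 0.158) or zebularine 3 (-1.58, 0.0942), and held with the block (0.00355). It was also lost without limma's variance trend (adjusted p = 0.149) and when experiment 1, 2 or 3 was dropped whole (0.0562, 0.195 and 0.36).

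With the experiment as a block 4 targets were lower and 2 higher, 28.6% of the 21 against 4.45% of all tested genes. This list was chosen with earlier results of these data known, so these shares are a description and not a test. MYC, the growth-promoting transcription factor, differed by -1.22 ± 0.31 and CCN1, a secreted matrix protein, by -1.25 ± 0.31 (limma, adjusted p = 0.106 and 0.0976; blocked fit 0.0315 and 0.0211). JAG1, a Notch ligand named after its values were seen, differed by -0.90 ± 0.28 (limma, adjusted p = 0.202; blocked fit 0.0214). In blocked fits without experiment 1 none of these 3 passed: MYC was at -0.74, CCN1 at -1.41 and JAG1 at -0.76 (limma, adjusted p = 0.207, 0.056 and 0.143). Without experiment 3, CCN1 was at -0.87 and JAG1 at -0.93 (limma, adjusted p = 0.113 and 0.0505). PLAUR, the urokinase receptor, differed by 1.26 ± 0.27 and the hyaluronan receptor CD44 by 0.72 ± 0.27 (limma, adjusted p = 0.0573 and 0.3; blocked fit 0.0141 and 0.0193). Many of these genes respond to other pathways too, and VCAN, the brightest target after CD44, differed by -0.30 ± 0.24.

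At other probe sets CD44 and PLAUR were called without the block. Of 7 further tested CD44 probe sets, all were higher and 212014_x_at differed by 1.39 ± 0.24 (limma, adjusted p = 0.0295). PLAUR at 211924_s_at differed by 1.54 ± 0.26 (limma, adjusted p = 0.0295). With the probe sets of each gene averaged, 3 pathway genes were called, MMP7 at -1.62, CD44 at 1.34 and PLAUR at 1.36 (limma, adjusted p = 0.033, 0.0233 and 0.033).

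The planar polarity and calcium list, the branches in which WNT5A mostly acts, had 25 tested genes with a median of 0.03. None was called without the block, and 2 were lower with it, 8% of the list against 4.45% of all tested genes. CELSR2, a cadherin of the planar polarity system, went from 523 ± 124 to 257 ± 76.3, and NFATC1, a transcription factor activated by calcium, from 287 ± 19.7 to 116 ± 16.6 (limma, adjusted p = 0.206 and 0.116; blocked fit 0.041 and 0.0434). In blocked fits both calls were lost without experiment 1 (0.236 and 0.216) or 3 (0.0783 and 0.0724), and that of NFATC1 also without experiment 2 (0.0572). Both other tested NFATC1 probe sets lay higher in treated cultures, at 0.71 ± 0.65 and 0.34 ± 0.44, so the lower value holds for 1 probe set. The small GTPase genes RAC1 and RHOA, which carry polarity signals, differed by 0.09 and 0.19.

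**Figure D3:**
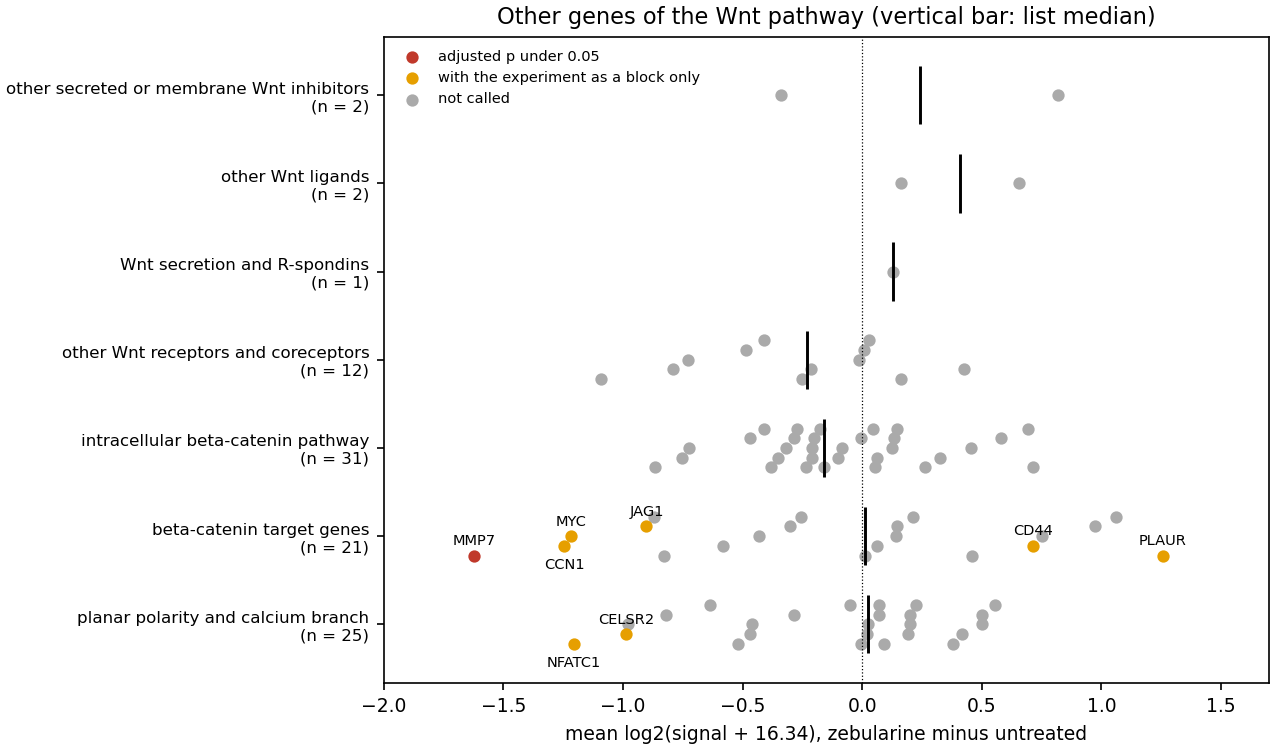
Mean difference on the log2(signal + 16.34) scale, zebularine minus untreated, for 94 tested genes of 7 Wnt pathway lists, 1 point a gene at its brightest tested probe set. Red marks the gene called by limma, orange those called with the experiment as a block and not without it, and the vertical bars are list medians. MMP7 lies lowest at -1.62 and PLAUR highest at 1.26.

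Array medians ran from 117.9 to 140.8. For ACTB the 3′ signal divided by the 5′ signal, a sign of RNA quality, was 3.104 on untreated array 1 and 5.249 on zebularine array 1, against 1.488 to 2.384 on the other 4 arrays. The GAPDH ratio was 1.515 on untreated array 1 and lower, at 1.338, on zebularine array 1, against 1.011 to 1.191 on the other 4. WIF1, DKK2, DKK3 214247_s_at and 221127_s_at, WNT5A 213425_at, SFRP1 202035_s_at and SFRP4 204052_s_at had their largest differences in experiment 1. The same held for MYC, JAG1, CELSR2, NFATC1 and CTNNB1 among the pathway genes, while MMP7, CCN1, CD44 and PLAUR had theirs in another experiment. The part of RNA quality in these differences was not tested. The brightest signals of experiment 3 reached 31176.4 and 28720.5 against 66289.9 to 71174.1 on the other 4 arrays, and the SFRP4 and WNT5A differences had the same direction in experiments 1 and 2 as in experiment 3. Of 9 listed renal epithelial markers on the array 6 reached the filter level on all 6 arrays, among them KRT18 at 12161.1 to 21525.6 and the renal factor PAX8 at 635.8 to 1237.1. The others were PAX2, CDH6, KRT8 and VIM. CDH16 and LRP2 reached the filter level on 2 arrays each and EPCAM on 0. The renal cadherin gene CDH6 had means of 1400 in untreated and 162 in treated cultures, so the markers of the labelled cell type did not all hold their level. The part of this in the SFRP4 difference was not tested. The leukocyte marker PTPRC and the endothelial marker CDH5 stayed at or under 56.0 and 62.3, but some others of these lists were brighter. The leukocyte marker ITGAM reached the filter level on 5 arrays, with means of 73.5 in untreated and 125.2 in treated cultures. The endothelial markers TEK (87.6 and 49.97) and VWF (13 and 73.3) reached it on 3 and 2 arrays. The leukocyte list summed to 180.3 to 231.2 in untreated and 231 to 369.2 in treated cultures. The endothelial list summed to 237.2 to 348.4 and 200.1 to 320.5. Of 9 fibroblast markers 2, COL1A1 and THY1, reached the filter level on 3 arrays, and their list summed to 414.4 to 614.5 in untreated and 585.1 to 968.7 in treated cultures. Most of that difference was COL1A1, with means of 197 and 398, while COL1A2 (72.1 and 27.0), COL3A1 (45.3 and 21.8) and PDGFRA (36.2 and 22.2) had lower treated means, and DCN and LUM stayed at or under 66.7 and 41.7. The part of these markers in the WNT5A difference was not tested.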

How the data were processed

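Gene expression was measured in 3 untreated A-498 cultures and 3 treated with 1000 µM zebularine for 120 h, on 1 Affymetrix array each. The deposited values are linear intensities made by the authors with MAS5, per the submitters' processing notes; the software version is not known from the labels or notes. Group and replicate number were read from each title, where replicates are named as biological, and the replicate number is what is called the experiment here. Values were taken as log2(signal + 16.34), the pseudocount being the median divided by 8, with no further normalization.

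The filter removed 8670 of the 22277 probe sets, beside 62 controls. Genes were named through the platform annotation where it gave 1 symbol (19070 probe sets; 1043 had several and 2164 none listed), and 19058 matched RefSeq by Entrez number. Fits used limma 3.58.1 in R 4.3.3 (lmFit, then eBayes with its trend option, two-sided tests) and were tested on simulated data. Array deviations from the group mean gave correlations of 0.323, 0.21 and 0.272 within the 3 experiments, each the highest for its number. The main fit did not use these pairs, and the blocked fit did. Only 6 arrays limit the precision.

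Named were all members, up to 4 called and the 2 brightest genes of each pathway list, and the 3 genes most like a called member; others are said to be named after their values were seen. Members and lists were chosen with earlier results of these data known. Alternatives covered pseudocount, filter, normalization, variance trend, block, probe set averaging and left-out arrays.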

Additional observations from a re-analysis of the deposited data

How the results depend on the processing

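Among 9 other settings that used all 6 arrays, the SFRP4 fall at 204051_s_at was called in 7. The call was lost without the filter on dim probe sets (-1.92, limma adjusted p = 0.0605) and without limma's variance trend (-1.92, 0.0762). Both settings left 0 member probe sets called. Without the filter, 3 of 18 member probe sets had an unadjusted limma p under 0.05, against 2148 of all 22215. Without the trend it was 3 of 8, against 1532 of all 13545. In both fits the 3 were of SFRP4 and WNT5A. The second WNT5A probe set passed the main filter only through its treated arrays. With 1 array or 1 experiment left out the SFRP4 difference ran from -2.07 to -1.75 (limma, adjusted p = 0.0259 to 0.284). In these fits the count of called member probe sets ran from 0 to 1, or 1 to 2 with the replicate block. The count over all probe sets was 84. It was 55 with a smaller pseudocount, 42 without the filter, 6 without the trend and 572 with the replicate block. With the replicate block together with other choices it was 395 without the filter, 607 after quantile normalization, 556 and 596 with a smaller and a larger pseudocount, and 194, 1023 and 335 without experiment 1, 2 or 3. With 1 array or experiment left out, without the block, it was 0 to 96; it was 0 without zebularine 2 and without experiment 2, with 1315 and 1583 probe sets at an unadjusted p under 0.05 in limma. The pathway count was 1, and 8 with the replicate block, 3 with probe sets averaged, 5 with both, 0 to 1 with an array or experiment left out, and 3 to 10 with the block and an experiment left out. WNT5A at 205990_s_at passed with the replicate block after quantile normalization (1.13, limma adjusted p = 0.0443) or without experiment 2 (1.27, 0.0363), which gave 2 called member probe sets. DKK3 at 202196_s_at changed sign without zebularine 2 (0.42), untreated 3 (0.17) or experiment 2 (0.26, with and without the block), with values from -0.35 to 0.42 over single arrays. The block changed no other call of a member. The stricter filter left WNT5A and DKK3 221127_s_at untested. Alternatives that pair the block with another choice, and those that leave arrays out of the pathway count, were chosen after the data were seen. For 10 dim probe sets the signal, not the number of fits, was the limit.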

Other observations

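Some Wnt receptor genes other than FZD7 lay lower in treated cultures without passing the test, and were picked out after their values were seen. FZD2 gave 506.7, 407.9 and 849.6 in untreated and 313.7, 218.9 and 460.6 in treated cultures. Its treated array was lower in all 3 experiments, as for 21.8% of all tested probe sets, by 0.66, 0.85 and 0.86 on the log2 scale (limma, adjusted p = 0.368, blocked fit 0.0763). FZD1 was lower in experiments 1 and 2, from 628.3 to 290.1 and 641.8 to 278.9, and level in experiment 3, at 582.4 and 600.9. The LRP6 coreceptor gene gave 199.7, 137.7 and 226.1 in untreated and 122.9, 106.5 and 32.3 in treated cultures, a difference of -1.09 ± 0.47 (limma, adjusted p = 0.367). FZD7 differed in the other direction; the difference between these receptors was not tested.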
